A study of Homo sapiens with 2 samples.

Results

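The glycoprotein hormones LH, FSH, TSH and chorionic gonadotropin are secreted as pairs of subunits. All of them use the same alpha subunit, encoded by CGA, and a beta subunit of their own sets which receptor each hormone binds. LH, FSH and TSH come from the anterior pituitary, where LH and FSH act on the gonads and TSH on the thyroid, while chorionic gonadotropin comes from the trophoblast of the placenta. CGA transcription responds to cAMP, the second messenger that activates protein kinase A and through it the factor CREB1, and ectopic alpha subunit is a known product of some tumour cells. The genes described here are CGA and the beta subunit genes LHB, FSHB and TSHB. They were taken as every probe set, a group of short probes for 1 transcript, that the platform annotation assigned to 1 of these symbols alone. This gave 4 probe sets for 3 of the 4 genes, of 54613 probe sets and 19775 genes in all. CGA had 2 probe sets, FSHB and TSHB had 1 each, and LHB had none of its own, since its probe set is shared with CGB1.

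The samples were a pair of stable lines of AGS, a human gastric adenocarcinoma cell line with low WTX expression. AGS.W carried a lentiviral vector with the whole coding region of WTX (AMER1, an X-linked tumour suppressor) and AGS.veh was the control. Infected cells were selected with puromycin, and whether a line was a pool or a clone is not given in the sources used here. Each line was profiled on 1 array (Affymetrix U133 Plus 2.0), so no p-value or error can be given and every difference is between 2 cultures. In the text a difference is the log2 signal in AGS.W minus that in AGS.veh, and a gene is read by its brightest probe set.

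Both arrays had nearly equal distributions, with a median log2 signal of 4.02 for AGS.W and of 4.03 for AGS.veh. A signal below these medians may be background. AMER1 was read by 1 probe set, at 3.70 in AGS.W against 3.86 in AGS.veh. Whether this probe set lies within the coding region of the vector is not known here, so the arrays do not check the labels. The epithelial keratins KRT8 and KRT18 were bright on both arrays, at 9.76 and 10.9 for AGS.W against 10.1 and 11.2 for AGS.veh, whereas KRT19 lay below both medians. A label field names a brain region as the source of the RNA, although the cells are labelled AGS. Of 14 brain markers measured, 7 reached the median on at least 1 array and none of them was 2-fold apart. GFAP, AQP4, OLIG2 and NEFL lay below the median on both arrays. Above it on both were GAD1, an enzyme of GABA synthesis, with 7.06 and 7.11, and MBP, a myelin gene, with 6.10 and 6.19. So were MOG, SLC17A7, SYN1 and RBFOX3, at 4.35 to 5.02, while MAG was above it in AGS.W alone.

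The sequence upstream of CGA is shown first because it holds a pair of cAMP response elements, the sites that CREB1 and its relatives bind. Those of FSHB and LHB are given for comparison. Each line holds the 250 bases before the start of the gene in RefSeq (build GRCh38.p14), read 5′ to 3′ on the strand of the gene. Capitals mark the full cAMP response element (TGACGTCA) and the TATA box (TATAAA). The CGA window is chr6:87095107-87095356 on the minus strand, that of FSHB is chr11:30230764-30231013 on the plus strand, and that of LHB is chr19:49017092-49017341 on the minus strand.
CGA: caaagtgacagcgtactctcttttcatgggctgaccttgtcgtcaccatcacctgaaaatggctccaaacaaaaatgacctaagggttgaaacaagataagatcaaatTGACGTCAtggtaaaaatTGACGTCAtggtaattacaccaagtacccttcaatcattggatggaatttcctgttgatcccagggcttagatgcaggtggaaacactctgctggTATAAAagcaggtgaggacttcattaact
FSHB: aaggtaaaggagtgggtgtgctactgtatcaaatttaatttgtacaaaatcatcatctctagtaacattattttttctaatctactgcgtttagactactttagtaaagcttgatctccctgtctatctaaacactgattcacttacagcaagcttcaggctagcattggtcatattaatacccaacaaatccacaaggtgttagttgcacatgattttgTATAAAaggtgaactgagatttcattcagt
LHB: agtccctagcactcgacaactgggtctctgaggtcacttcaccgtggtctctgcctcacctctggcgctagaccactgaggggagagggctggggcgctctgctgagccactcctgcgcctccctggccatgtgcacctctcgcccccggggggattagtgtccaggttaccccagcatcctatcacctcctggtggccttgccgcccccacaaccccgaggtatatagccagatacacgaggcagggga

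In the CGA window the elements lay at bases -142 to -135 and -124 to -117, counted back from the start of the gene. Upstream of them, at -156 to -151, was a GATA element (AGATAA, either strand), and a CCAAT box (CCAAT) on the opposite strand lay at -88 to -84. The TATA box of CGA lay at -29 to -24, and that of FSHB at -30 to -25. FSHB also had a CCAAT box on the opposite strand, at -85 to -81. None of these 4 motifs was found in the LHB window, and the full cAMP response element was found in neither beta subunit window. The LHB and TSHB starts lie inside the spans that RefSeq gives these genes, and the TSHB window is not shown. Of 35116 RefSeq windows of 300 bases, from 250 before to 50 after a start, 1.85% held the full element on either strand and 0.0598% held it more than once. The other motifs were more common, with 10.3% of windows for the GATA element, 34.6% for the CCAAT box and 11.5% for the TATA box. A match is a stretch of letters and does not show that a factor was bound in these cells.

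**Figure D1:**
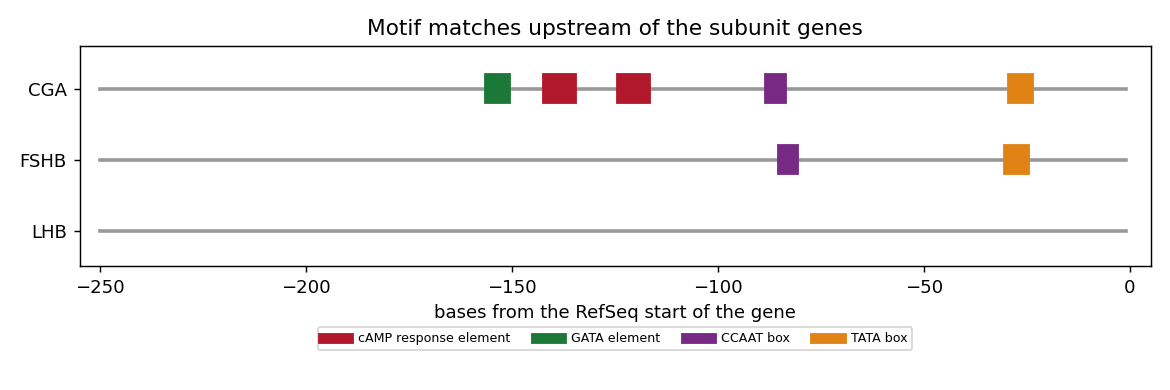
Positions of motif matches (coloured boxes) in the 250 bases before the RefSeq start of CGA, FSHB and LHB, with bases from the start on the horizontal axis. CGA holds a pair of cAMP response elements, FSHB has a CCAAT box and a TATA box at nearly the same places as CGA, and LHB has no match.

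CGA was far higher in AGS.W, on both of its probe sets. Its brighter probe set read 12.6 in AGS.W against 8.94 in AGS.veh as log2 signals. The difference was 3.66, or 12.6-fold. Both signals were well above the array median, by 8.58 in AGS.W versus 4.92 in AGS.veh on the log2 scale. The control line thus already gave a CGA signal above that of 96.0% of probe sets. In AGS.W the signal exceeded that of 99.9% of probe sets and ranked 54 of 54613. The dimmer probe set had 5.49 in AGS.W against 1.86 in AGS.veh, a difference of 3.63. Here the AGS.veh signal lay below the array median. With that signal raised to the median, the difference was 1.47, so on this probe set CGA was at least 2.77-fold higher. The probe sets thus gave nearly the same difference, although one of them was dim in AGS.veh. The RNA came from whole cultures, in which more cells with CGA and more CGA RNA per cell cannot be told apart.

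By size of difference the CGA probe sets ranked 2 and 3 from the top of 54613. Counted as genes, CGA ranked 2 of 19775 and was behind PCK1 alone. Among the 12151 genes that reached the median of each array it ranked 1. CGA was chosen by this difference and its signal, so the ranks describe the choice and carry no test. Genes as bright as CGA in AGS.W seldom differed much. The 25 other genes with at least its AGS.W signal had differences between -0.08 and 0.32. In AGS.veh the same gene ranked 1459 by signal, against 26 in AGS.W. The genes whose pair of signals lay closest to that of CGA were NDRG1, BNIP3, WFDC1, ISG15 and HERPUD1. Their Euclidean distances from CGA, over the 2 arrays, ran from 1.49 for NDRG1 to 1.90 for HERPUD1. NDRG1, the closest of them, had 12.0 in AGS.W versus 10.3 in AGS.veh. Their differences lay between 1.26 and 1.68, so none combined the AGS.veh level of CGA with a difference near its size.

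**Figure D2:**
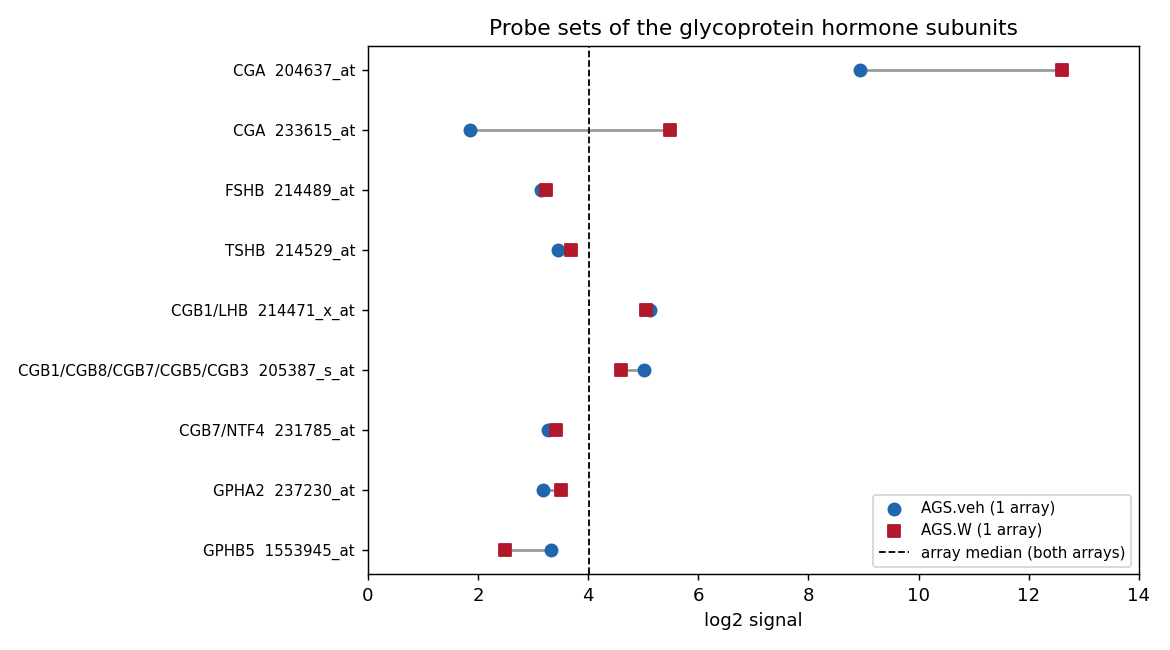
Signal on the log2 scale (horizontal axis) of the control line as circles and of AGS.W as squares, each from 1 array, for every probe set that names a glycoprotein hormone subunit, with the array median as a dashed line. Both CGA probe sets lie far to the right in AGS.W, at 12.6 and 5.49, while FSHB and TSHB stay left of the median on both arrays.

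Neither FSHB nor TSHB showed a difference like that of CGA. FSHB, which encodes the FSH beta subunit, had 3.23 in AGS.W against 3.14 in AGS.veh, a difference of 0.09. TSHB, which encodes the TSH beta subunit, had 3.69 and 3.45, a difference of 0.23. Both genes lay below the median on either array, so no fold is given for them. Among the 1000 probe sets closest to them in mean signal, 33.8% had a smaller difference in size than FSHB and 63.8% a smaller one than TSHB. For the CGA probe sets these shares were 99.9% for the brighter and 99.8% for the dimmer one. CGA was chosen by this difference, so its shares follow from the choice and carry no test. These shares describe other transcripts on the same arrays and are not a replicate error.

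LHB could not be read alone. The probe set shared by CGB1 and LHB had 5.06 in AGS.W versus 5.12 in AGS.veh, above both medians. Its difference was -0.06. A probe set shared by CGB1, CGB3, CGB5, CGB7 and CGB8, closely related beta subunits of chorionic gonadotropin, had 4.60 and 5.02. Its difference was -0.42, in the direction opposite to CGA. The probe set shared by CGB7 and NTF4 had 3.42 and 3.28, below the medians. Because these probe sets match several genes, opposite changes of single genes would not be seen. The related subunits GPHA2 and GPHB5, which pair as thyrostimulin, were below the median on both arrays, at 3.51 and 2.48 for AGS.W against 3.18 and 3.32 for AGS.veh.

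**Figure D3:**
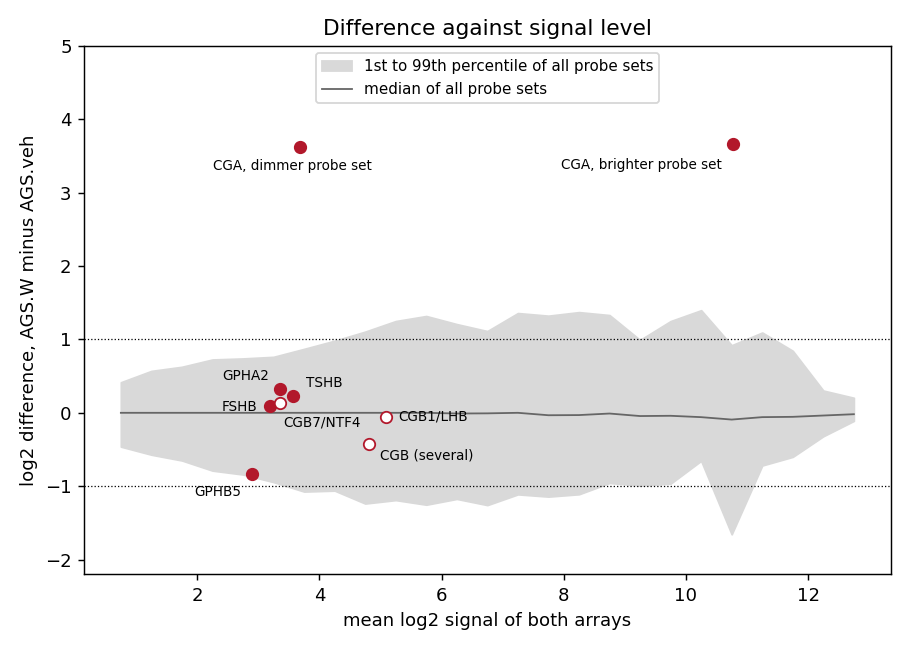
Log2 difference AGS.W minus AGS.veh (vertical axis) against the mean log2 signal of both arrays (horizontal axis). Filled points are probe sets of 1 subunit gene, open points are shared ones, the grey band holds the 1st to 99th percentile of all probe sets at that signal and dotted lines mark 2-fold. Both points of CGA, which was chosen by its difference, stand above the band, at 3.66 and 3.63. The points of FSHB and TSHB lie inside it.

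Over all probe sets, 1.07% reached 2-fold higher in AGS.W and 1.12% reached 2-fold lower. Of the 4 probe sets of the subunit genes, 2 were at least 2-fold higher, both of CGA, and nothing is read from this count because it includes the value that chose them. FSHB and TSHB did not reach the median on either array, so CGA was the only one of the 4 genes to pass that filter. For the lists of related genes that follow, only genes at or above the median on at least 1 array were counted. Of 12811 such genes, 1.83% reached 2-fold higher, 1.94% reached 2-fold lower and the median difference was -0.01.

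The receptors of these hormones were dim in both lines. LHCGR, the receptor of LH and chorionic gonadotropin, had 1.04 on both arrays. FSHR had 2.22 in AGS.W against 1.98 in AGS.veh. TSHR had 2.17 in AGS.veh and a difference of -0.17. All 3 lay below the medians. Of the related receptors, LGR4, a receptor for R-spondins, was bright on both arrays, with 7.73 and 7.43, and LGR6 had 4.44 on both. None of the receptors and relatives that passed the filter was 2-fold apart.

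The pituitary signals upstream of the subunits were mostly dim as well. GNRHR, the receptor that drives LH and FSH release, had 2.86 in AGS.W versus 3.02 in AGS.veh. TRHR, its counterpart for TSH, had 3.38 and 3.19. Of 18 releasing hormones, receptors, activins and inhibins, 9 passed the filter and none was 2-fold apart in either direction. Their median difference was -0.16. The largest difference was that of INHBA, a subunit of activin, which stimulates FSHB in the pituitary. INHBA had 4.51 in AGS.W against 5.16 in AGS.veh, a difference of -0.65. INHBB followed with 6.50 and 6.88, and TGFBR3, the inhibin co-receptor, had 8.33 and 7.96. Follistatin (FST), which binds activin, was bright and close between the lines, at 9.78 and 10.0.

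Transcription factors of the subunit promoters were partly present in AGS cells. Of 26 measured, 19 passed the filter. LHX4 alone reached 2-fold higher and none reached 2-fold lower, with a median difference of 0.02. LHX4, a LIM homeodomain factor of pituitary development, had 6.21 in AGS.W versus 5.17 in AGS.veh. Its 2 other probe sets were below the medians, with differences of 0.12 and -0.23. LHX2, a LIM homeodomain factor that can activate the CGA promoter, had 7.14 and 6.14, just short of 2-fold. Factors of the gonadotroph and thyrotroph programme were dim only in part. POU1F1 had 0.91 on both arrays, LHX3 had 3.02 on both, and NR5A1 had 3.75 and 3.96, all below the medians. FOXL2 and ISL1 lay above the medians, at 7.45 and 5.19 for AGS.W against 7.78 and 5.76 for AGS.veh. PITX1 and GATA2, which act on the CGA promoter in the pituitary, were above the medians but close between the lines. PITX1 had 5.78 in AGS.W against 5.87 in AGS.veh. GATA2 had 6.33 and 6.46.

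Factors of the cAMP response element itself, and inducible factors of the other promoters, showed differences in both directions, below 2-fold on the brightest probe set of each. CREB1 had 5.38 in AGS.W versus 5.92 in AGS.veh, a difference of -0.54. CREM, which yields both activators and inducible repressors of these elements, had 9.01 and 8.31, a difference of 0.70. Its 6 probe sets ran from -0.35 to 1.15, and 2 of them were past 2-fold. ATF3, a stress-induced member of the same family, had 10.8 and 9.92, and 1 of its 3 probe sets was past 2-fold, with a difference of 1.18. EGR1, the factor that drives LHB in gonadotrophs, had 9.68 and 8.92. TFAP2A, a factor of trophoblast CGA transcription, had 8.37 and 7.63. The differences of ATF3, EGR1 and TFAP2A were 0.85, 0.77 and 0.74.

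Genes that make, break down or sense cAMP were mostly close between the lines. Of 29 measured, 22 passed the filter, with none 2-fold higher, 1 at least 2-fold lower and a median difference of 0.04. PRKACB, a catalytic subunit of protein kinase A, was the lower one. Its signal was 6.78 in AGS.veh and 5.60 in AGS.W. As the mean of its 3 probe sets its difference was -0.66, which is below 2-fold. The other catalytic gene, PRKACA, had 5.79 and 5.94. PDE4D, a phosphodiesterase that degrades cAMP, had 8.31 in AGS.W versus 7.31 in AGS.veh, just short of 2-fold. All 6 of its probe sets were higher in AGS.W, with differences between 0.99 and 1.62, and as their mean it was past 2-fold with 1.23. GNAS, the stimulatory G protein that activates adenylyl cyclase, had 12.2 on both arrays on its brightest probe set. Of its 12 probe sets, 1 was past 2-fold and lower, with 7.07 in AGS.W versus 8.17 in AGS.veh, a difference of -1.11.

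Most genes known to respond to cAMP through such elements had a higher signal in AGS.W. Of 20 measured, 13 passed the filter and 12 of these had a positive difference, beside 5850 of all 12811 genes past it. At least 2-fold higher were 3, none was 2-fold lower, and the median difference was 0.55 beside -0.01 for all genes. Of the 13, PCK1 and DIO2 passed by AGS.W alone, so their positive direction follows from the filter. PCK1, the rate-limiting enzyme of gluconeogenesis, had 8.20 in AGS.W against 3.60 in AGS.veh. The latter lay below the median, and with it raised to the median PCK1 was at least 18.0-fold higher. FOS, an AP-1 subunit and immediate early gene, had 9.21 and 7.88. NR4A2, an orphan nuclear receptor of the same early response, had 7.88 and 6.72, and its 3 probe sets had differences between 1.12 and 1.36. NR4A1 was just short of 2-fold, with 9.15 and 8.15. Probe sets with an _x_at or _s_at suffix can match several transcripts, and when these were left out 1 gene was at least 2-fold higher, since those of PCK1 and NR4A2 all carry such a suffix. Serum and stress also induce FOS, NR4A1 and NR4A2, and the list was drawn up with the values of PCK1 and CGA known.

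**Figure D4:**
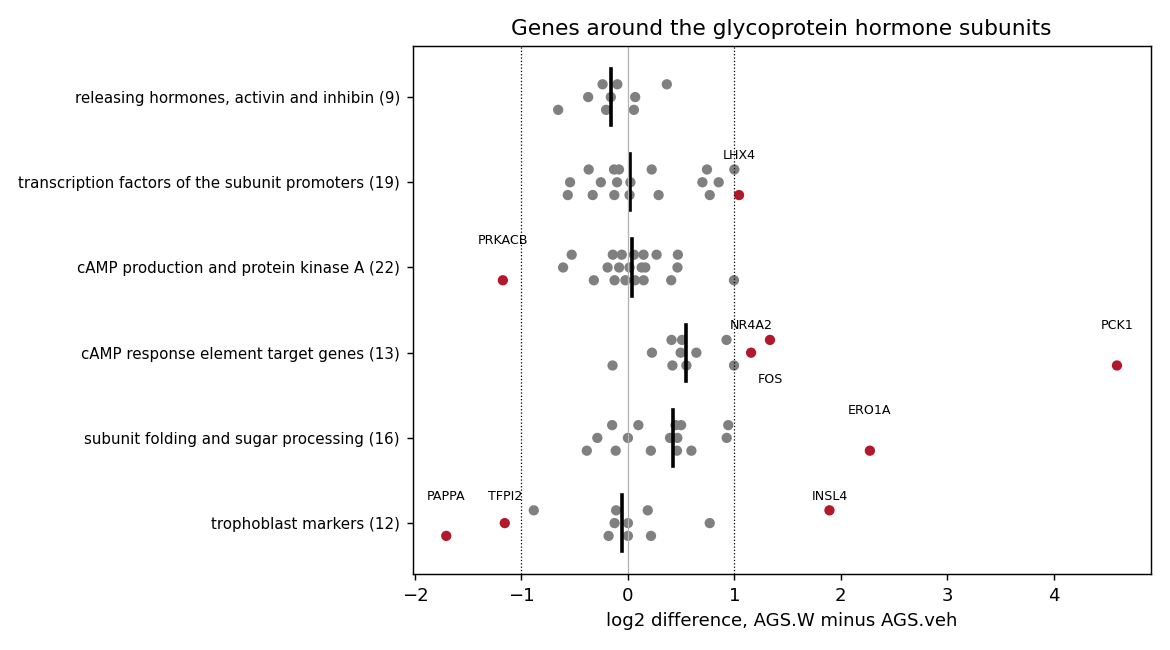
Log2 difference AGS.W minus AGS.veh (horizontal axis) of each gene at or above the median on at least 1 array, 1 row per gene list with the number of genes in brackets. Black bars are list medians, dotted lines mark 2-fold, and red points are genes past it. The cAMP response element targets lie mostly right of 0 with a median of 0.55, while the transcription factors centre on 0.02.

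Genes with the letters of the full element upstream were seldom 2-fold apart. Among genes with an element in any RefSeq window, 386 passed the filter, with CGA among them, and the median difference was 0.00. Leaving out CGA, whose value chose it, 6 of 385 were 2-fold higher or more, which is 1.56% beside 1.68% of all 10338 genes with a window. Lower by 2-fold or more was 1, STK38L, which is 0.260% beside 1.79%, and this difference was not tested. Genes with more than 1 element in a window numbered 20, of which 14 passed the filter. Besides CGA, ARG2, a mitochondrial arginase, was 2-fold higher, as 1 of the 13 others, and none was lower. So small a count is not read against the share over all genes. ARG2 had 6.47 in AGS.W versus 5.02 in AGS.veh. Of the 22 genes listed as cAMP targets, 16 had a window and 6 held the full element. Of these, DUSP1, a phosphatase of MAP kinases, had 10.7 and 10.3, and VGF, a neuroendocrine secretory gene, had 4.79 and 4.93. DIO2 had 4.32 and 3.90. CHGA and SST lay below the median on both arrays, and AREG had no probe set of its own. Elements also lay upstream of CGB1 and CGB2, whose transcripts could not be read alone. The 30 bases around the element of DUSP1, VGF, CGB1 and CGB2 are shown, again in GRCh38.p14 and on the strand of the gene. Set beside the CGA pair, they let the shared core be seen with its differing flanks. They are chr5:172771302-172771331 for DUSP1 (minus strand), chr7:101165630-101165659 for VGF (minus strand), chr19:49036930-49036959 for CGB1 (minus strand) and chr19:49031848-49031877 for CGB2 (plus strand).
DUSP1: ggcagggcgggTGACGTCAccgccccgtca
VGF: tgaatgaacatTGACGTCAatggggcgggg
CGB1: aggctcatcccTGACGTCAcccagtcccca
CGB2: aggctcaccccTGACGTCAcccagtcccca

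Genes for folding of secreted glycoproteins such as these subunits were also mostly higher, whereas those for sugar processing were mixed. Of 16 genes of both kinds that passed the filter, 11 had a positive difference and 4 a negative one, with a median of 0.42. Of all 12811 genes past it, 5850 had a positive difference and 6466 a negative one, with a median of -0.01. The 4 lower genes of the list, CHST8, B4GALNT3, ST6GAL1 and MGAT2, were all of sugar processing. ST3GAL3 and MAN2A1, of the same kind, were higher, and MGAT1 was equal on both arrays. ERO1A, which re-oxidises the disulphide isomerases that form the cystine bonds of secreted proteins, was the only one of the 16 at least 2-fold higher. It had 9.63 in AGS.W against 7.35 in AGS.veh. Its 3 probe sets had differences between 1.18 and 2.27. The chaperones HSPA5 and HSP90B1 had 12.0 and 10.6 for AGS.W against 11.0 and 9.63 for AGS.veh. P4HB, a disulphide isomerase, had 10.3 and 9.81. Enzymes that put sulphated GalNAc on LH and TSH were dim or close to the median. CHST8 had 4.02 and 4.31, and B4GALNT3 had 4.07 and 4.19.

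Markers of the cell types that normally make these hormones were dim for the pituitary and in part bright for the trophoblast. Of 12 pituitary markers measured, 1 passed the filter, TBX19 at 4.12 and 4.05. POMC, PRL and GH1 lay below the median on both arrays. The summed pituitary signal was 6.75 in AGS.W versus 6.88 in AGS.veh on the log2 scale. Of 22 trophoblast markers, 12 passed, of which 1 was 2-fold higher or more and 2 were lower by as much. Their median difference was -0.06. The summed signal was 11.2 in AGS.W against 11.0 in AGS.veh. HLA-G was the brightest marker in this sum on both arrays, so the sum gives no direction for the other markers. The marker at least 2-fold higher was INSL4, a placental hormone of the insulin family, with 8.00 in AGS.W versus 6.11 in AGS.veh. PAPPA, a placental protease, had 3.47 and 5.17, and TFPI2, a protease inhibitor, had 3.72 and 4.87. Both lay below the AGS.W median. With that signal raised to the median, PAPPA was at least 2.22-fold lower and TFPI2 at least 1.81-fold. Of the 11 probe sets of PAPPA, 8 were lower in AGS.W, 5 of them by 2-fold or more, and the differences ran from -3.84 to 0.19. With a signal at the median asked of both arrays, 0 genes were lower, because that filter leaves out PAPPA and TFPI2. The brightest trophoblast markers by mean signal were HLA-G, with 10.3 and 9.54, KRT7, a keratin of many epithelia, with 8.53 and 9.42, and PGF, a placental growth factor, with 7.95 on both. The probe sets read for HLA-G, KRT7 and PGF carry an _x_at or _s_at suffix and can match several transcripts. The other probe set of PGF lay below the medians, with 3.60 and 3.48. GCM1, CSH1 and CYP19A1, which are more particular to the trophoblast, lay below the median on both arrays. PSG1 had 4.73 on both.

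Of 11 neuroendocrine markers measured, 5 passed the filter and 2 were at least 2-fold higher. Over all genes past it 1.83% were, and so small a count is not read against that share. ENO2 had 9.78 in AGS.W against 6.88 in AGS.veh. SNAP25, a protein of vesicle fusion, had 5.15 and 3.57 and passed the filter by AGS.W alone. With its AGS.veh signal raised to the median it was at least 2.18-fold higher, whereas averaging its 3 probe sets gave a difference of 0.85, below 2-fold. SCG5 had 4.66 and 3.66, just short of 2-fold, and also passed by AGS.W alone. ENO2 is also a glycolytic enzyme. The granule genes CHGA and CHGB lay below the median on both arrays, and SYP had 4.51 and 4.65. The summed neuroendocrine signal was 10.0 in AGS.W versus 7.85 in AGS.veh. ENO2 made up most of this sum, which without it was 7.17 for AGS.W and 6.83 for AGS.veh. Thus INSL4, ENO2 and SNAP25 were at least 2-fold higher in AGS.W along with CGA, on the probe sets read, while PAPPA and TFPI2 were at least 2-fold lower. The next largest differences in these 2 lists, short of 2-fold, were 0.996 for SCG5, -0.88 for KRT7 and 0.77 for HLA-G. The median on at least 1 array was reached by 12 of 22 trophoblast and 5 of 11 neuroendocrine markers. Over all genes a larger share reached it, 12811 of 19775. The part of these markers in the CGA difference was not tested. With 1 array per line, the state of the cultures and the vector cannot be told apart.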

How the data were processed

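Total RNA of AGS.W and AGS.veh was labelled with biotin and hybridised to Affymetrix Human Genome U133 Plus 2.0 arrays, 1 per line. Values deposited by the authors are on the log2 scale, 1 signal for each probe set, and already normalized between arrays. The submitters' processing notes list RMA and MAS5 without versions or roles. Nothing was renormalized for the main values. Of 54613 probe sets other than 62 controls, 41091 were assigned to 1 gene by platform annotation of 2016, 1801 to several and 11721 to none here. Gene identifiers led to current RefSeq symbols (GRCh38.p14), except for 54 probe sets. A gene was read by its probe set of highest mean signal. The fold threshold was 2, as in the study's methods, whose FDR needs replicates. The number of arrays limits the precision.

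The subunit genes and 12 gene lists, written from general knowledge, were chosen with earlier results of these data known. Named were all subunits and receptors, list genes at least 2-fold apart or otherwise up to 3 of largest difference, up to 4 defining markers per cell type, and the 5 genes nearest to CGA. Some others, such as CREB1, GNAS, PITX1 and DUSP1, were added after their values were seen for their known roles, as were ARG2 and STK38L as single calls and the bright trophoblast and brain markers. Motifs were searched in RefSeq windows on both strands, and promoters of 16 of the 22 cAMP target genes matched by symbol. Steps were checked on simulated arrays. Alternatives were 3 scalings, 3 ways to summarise probe sets, a signal floor, other signal filters and folds of 1.5 and 3. The work used statsmodels 0.14.6, pandas 2.3.3 and numpy 2.4.6 in Python 3.11.15, with figures from matplotlib 3.10.9.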

Additional observations from a re-analysis of the deposited data

How the results depend on the processing

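No paired analysis was possible because there was a single array per line, which also left no replicate to drop. In place of a replicate error, moves were compared with the median absolute deviation of the 1000 probe sets nearest in signal, or of the genes in a list. All 21 alternative differences of CGA, FSHB and TSHB as genes stayed within that spread. For FSHB and TSHB, with 1 probe set each, the ways to summarise probe sets cannot move the value. The brighter probe set of CGA is of neither suffix type, has the larger difference and lies above both medians. Leaving out those types, taking the largest difference and the signal floor therefore cannot move CGA. Of 16 alternative differences of single probe sets, 15 stayed within the spread too, the exception being 1.47 for CGA on its dimmer probe set with a signal floor at the median. No difference at least 2-fold apart turned direction. The cause of the moves below was not tested, apart from the fold thresholds, which move counts by construction. With a fold of 1.5 there were 2415 higher and 2576 lower probe sets, and 851 and 944 such genes. With a fold of 3 these numbers were 115, 120, 56 and 57. As the mean of probe sets 143 genes were higher and 136 lower, and by the probe set of largest difference 361 were higher. Transcription factors at least 2-fold higher numbered 2 under each of 3 scalings and without _x_at and _s_at types, 0 as means of probe sets, 3 by largest difference, 6 at 1.5-fold and 0 at 3-fold. For cAMP production and protein kinase A, 1 gene was higher under each scaling, as means, by largest difference and at 1.5-fold. Lower there were 0 as means, 2 without those types, 2 by largest difference, 2 at 1.5-fold and 0 at 3-fold. Of cAMP targets, 1 was higher without those types, 6 at 1.5-fold and 1 at 3-fold. Of folding genes 4 were higher at 1.5-fold, and of releasing hormones 1 was lower. Of trophoblast markers, 2 were higher without those types, by largest difference and at 1.5-fold. Lower there were 0 as means, with a filter on both arrays and with one at the upper quartile, 1 without those types and 1 at 3-fold. Of neuroendocrine markers, 1 was higher under each of these 2 filters, as means, without those types and at 3-fold. An offset before the log2 step was not run.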

Other observations

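The genes next to CGA on chromosome 6 were read after the values of CGA were known, as 5 protein-coding neighbours on each side in RefSeq order. Of these 10 genes, 7 had a probe set of their own and 5 of those reached the median on at least 1 array. Their differences ran from -0.59 for SYNCRIP to 1.22 for ZNF292, and ZNF292 was the only one at least 2-fold apart. ZNF292, a zinc finger gene, had 7.62 in AGS.W and 6.40 in AGS.veh. NT5E, the ecto-nucleotidase CD73, had 6.88 and 6.07. SMIM8 had 5.87 and 5.97. None of the neighbours of LHB, FSHB or TSHB that reached the median was 2-fold apart, over 4, 7 and 2 such genes.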
